A study of Mus musculus with 18 samples.

Results

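Foxp3 and the Ikaros family of zinc finger factors were followed across T cells of melanoma and spleen through every probe that the array carries for Foxp3, Ikzf1, Ikzf2, Ikzf3 and Ikzf4. The members were chosen by name: all probes that the platform table, with updated symbols, assigns to these 5 genes. This gave 13 probes of 4 genes, out of 46237 probes, of which 35784 had a gene name, for 20289 genes. Foxp3 had 4 probes, Ikzf1 had 5, Ikzf2 had 1 and Ikzf3 had 3, while Ikzf4 (Eos) was not analysed here because no probe was assigned to it. All 13 probes passed the detection filter, which asked for a detection p under 0.05 on 3 arrays or more of the 18, as did 27474 probes in all.

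The cells came from female C57BL/6 mice with the genotype Foxp3-GFP-DTR-CD90.1, which all 6 groups share, each injected under the skin with 50000 cells of B16F10, a transplantable mouse melanoma line. Tumour and spleen were taken at a tumour diameter of about 10 mm, and cells were pooled before they were sorted by flow cytometry, so that no array stands for 1 known animal. Regulatory T cells (Treg) were sorted as CD4+CD25+Foxp3+ CD8- cells, conventional T cells (Tconv) as CD4+Foxp3- CD8- cells and CD8 T cells as CD8+ CD4- cells, all of them CD11b-. No age is given in the sources used here, nor whether the reporter alters the transcript that the Foxp3 probes read. Each group had 3 arrays, 1 on each of 3 BeadChips. A group kept its position on every BeadChip, and position and group therefore cannot be told apart. Nothing states that the replicates came from separate animals, and the p-values then measure only the spread between these samples, which may be technical.

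Foxp3 is the forkhead transcription factor that defines regulatory T cells and is needed to keep their suppressive programme. The Ikaros family factors bind DNA through one group of zinc fingers and pair with each other through another, and they recruit corepressors such as the NuRD complex. Ikaros (Ikzf1) is present across lymphocytes, Helios (Ikzf2) is best known from thymus-derived Treg and from some activated T cells, Aiolos (Ikzf3) from B cells and differentiated T cells, and Eos (Ikzf4) as a partner of Foxp3 in Treg.

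The start regions of Foxp3 and Ikzf1 are shown because these were the only members with start windows. RefSeq (GRCm38.p6) gave 2 windows for each, 300 bases from 250 before to 50 after an annotated start, all on the plus strand, and the table used here holds none for the other members. Capitals mark the 6-letter core TGGGAA that Ikaros factors are known to bind and its reverse complement, and the TATA element TATAAA.

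Foxp3 upstream start chrX:7579426-7579725: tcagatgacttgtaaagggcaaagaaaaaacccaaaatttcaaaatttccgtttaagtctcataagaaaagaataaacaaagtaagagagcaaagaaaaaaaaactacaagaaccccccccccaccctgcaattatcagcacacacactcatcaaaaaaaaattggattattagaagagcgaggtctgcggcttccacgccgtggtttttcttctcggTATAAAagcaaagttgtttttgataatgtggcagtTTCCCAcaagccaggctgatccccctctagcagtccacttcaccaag
Foxp3 downstream start chrX:7580233-7580532: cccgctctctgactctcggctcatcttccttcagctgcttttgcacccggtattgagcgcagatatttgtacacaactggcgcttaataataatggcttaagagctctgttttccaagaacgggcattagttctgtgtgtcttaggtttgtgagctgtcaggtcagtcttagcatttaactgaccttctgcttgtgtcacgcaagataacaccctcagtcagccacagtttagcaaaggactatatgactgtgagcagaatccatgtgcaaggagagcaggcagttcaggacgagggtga
Ikzf1 upstream start chr11:11685675-11685974: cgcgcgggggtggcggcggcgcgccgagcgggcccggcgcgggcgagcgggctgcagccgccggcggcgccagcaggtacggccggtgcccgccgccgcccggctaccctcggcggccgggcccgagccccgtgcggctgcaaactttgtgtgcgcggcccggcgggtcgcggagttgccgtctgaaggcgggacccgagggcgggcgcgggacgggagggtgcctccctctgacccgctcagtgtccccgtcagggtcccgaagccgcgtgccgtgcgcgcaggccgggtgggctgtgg
Ikzf1 downstream start chr11:11689927-11690226: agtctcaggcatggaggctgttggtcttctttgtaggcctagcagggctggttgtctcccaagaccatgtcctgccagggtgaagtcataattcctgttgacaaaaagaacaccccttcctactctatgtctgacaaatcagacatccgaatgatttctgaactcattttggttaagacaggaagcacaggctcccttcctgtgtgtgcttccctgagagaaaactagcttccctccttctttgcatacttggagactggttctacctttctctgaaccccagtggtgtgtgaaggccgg

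The upstream Foxp3 window held 1 match to TGGGAA, on the minus strand, and 1 match to TATAAA. On either strand, the first occurs in 25.6% and the second in 13.6% of the 32851 mouse windows of this length, so that neither match is rare. No Ikzf1 window held either motif, nor a match to the forkhead letters GTAAACA (3.65% of windows) or the Runx letters TGTGGT (16.8%), and neither did the Foxp3 windows for the last pair. The NFAT letters GGAAAA (23.4% of windows, both strands) matched once, in the downstream Foxp3 window. The windows of Ikzf1 differ in base composition, with 81.3% G and C and 52 CG pairs in the upstream one against 49% and 2 in the downstream one. A match describes the letters in these windows and is no measure of binding.

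Levels are log2 intensities after background correction and quantile normalization, with a floor near 4 (the lowest value on any array was 4.03). Differences are in log2 ± SE with n = 3 arrays in each group, from 1 linear model of limma over all 18 arrays, and adjusted p-values are over all 27474 probes by Benjamini-Hochberg, with a threshold of 0.05. Levels of different probes cannot be set against each other. In such bulk samples, fewer cells that express a gene and less RNA per cell cannot be told apart. The sorted types were checked against their markers: Cd4 did not exceed 4.54 on its brighter probe on any CD8 array but reached at least 8.12 on all CD4+ arrays, the brightest Cd8b1 probe read 10.89 or more on all CD8 arrays and at most 7.46 on CD4+ arrays, and the brighter Cd3e probe read 10.09 or more on every array. Not every CD8 probe followed the sort: Cd8b1 ILMN_1257694 read 6.20 to 6.66 in tumour CD8 and 7.56 to 8.19 in tumour Tconv, and Cd8a was detected on no spleen CD8 array. Il2ra, which encodes CD25 of the Treg gate, did not pass between Treg and Tconv in either tissue by limma, read by its brightest probe. Median signals ran from 79.0 to 88.1 and 38.0% to 45.2% of probes were detected, with a mean signal of 135 to 156 in tumour Treg and of 117 to 143 on the other 15 arrays.

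Of the 4 Foxp3 probes, 1 separated Treg from the other cells. On ILMN_1225330 the tumour Treg arrays stood at 9.30, 9.32 and 9.12, and the spleen Treg arrays at 8.52, 8.24 and 8.27. The 12 arrays of the other groups all lay between 4.07 and 4.41, at the floor, and the probe was detected on 1 of 3 arrays in tumour Tconv, spleen Tconv and spleen CD8 and on none in tumour CD8. Before normalization the mean bead intensities were 859 ± 70.9 (SD, n = 3) in tumour Treg and 373 ± 56.8 (SD, n = 3) in spleen Treg, against 81.5 to 85.2 in the other groups. Since Foxp3 was part of the gate, its difference of 5.01 ± 0.12 between tumour Treg and Tconv and of 4.16 ± 0.12 in spleen checks the sort and is no finding. Without background correction these were 3.00 and 2.25.

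Between the 2 Treg groups, Foxp3 on this probe was higher in tumour by 0.90 ± 0.12 (adjusted p = 6.32e-04, limma), a 1.87-fold difference. The groups did not overlap, and the difference was 0.78, 1.07 and 0.85 within BeadChips 1, 2 and 3. Of all 27474 probes, 2.11% passed in this comparison, and 0.702% of all probes passed as lower in tumour. The call held without any 1 array, but not with all arrays of replicate number 2 or of number 3 left out (adjusted p up to 0.0786). Median scaling in place of quantile normalization gave 1.37. The change from spleen to tumour in Treg exceeded that in Tconv by 0.86 ± 0.17, which did not pass (adjusted p = 0.0754, limma, unadjusted p = 1.66e-04), while it passed with median scaling (1.32, adjusted p = 0.00798), with the authors' value table (adjusted p = 0.0028) and without background correction (adjusted p = 0.00267).

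The other Foxp3 probes did not separate Treg from the other cells. ILMN_1251126 was detected on all 18 arrays at 5.88 to 7.87, with tumour Treg at 6.77 to 6.97 inside the range of tumour Tconv, 6.58 to 7.24. ILMN_2635132 was also detected on all 18 arrays, at 4.79 to 5.95, and its mean was lowest in tumour Treg, 4.94 ± 0.04 (SD, n = 3). ILMN_2917180 stayed between 4.10 and 4.51 and was detected on 3 arrays, none of them Treg. Over the 18 arrays, which share 6 groups, these probes correlated with ILMN_1225330 at r = 0.22, -0.39 and -0.31. None of them passed in any of the 9 comparisons by limma, and ILMN_1251126 had an unadjusted p under 0.05 for tumour against spleen in Treg (-0.68 ± 0.28) and CD8 cells (-0.61 ± 0.28). What each probe binds was not tested, since no probe sequences were used here.

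**Figure D1:**
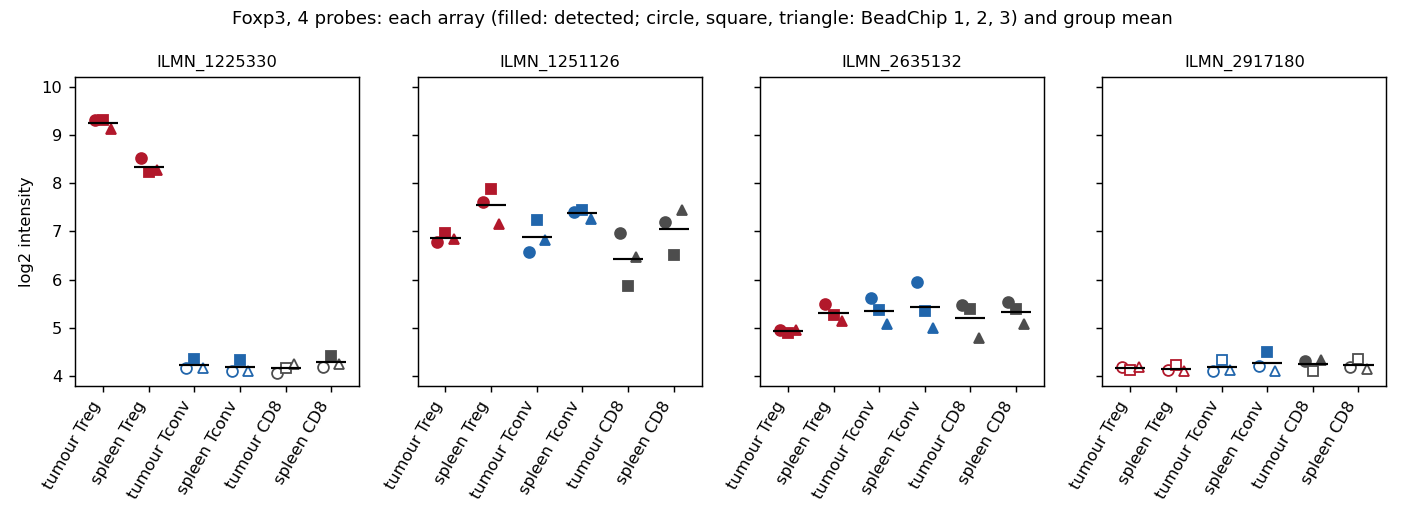
Log2 intensity (vertical axis, floor near 4) of the 4 Foxp3 probes in 6 groups. Points are single arrays, filled where detected, with shapes for the BeadChips, and black lines are group means of 3 arrays. On ILMN_1225330 the 6 Treg arrays lie between 8.24 and 9.32 and the other 12 at 4.41 or below, whereas the other probes show no such gap.

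Ikzf2, which encodes Helios, followed Treg in both tissues. The single Ikzf2 probe, ILMN_1217123, stood at 8.14, 8.34 and 8.15 in tumour Treg and at 7.69, 7.56 and 7.82 in spleen Treg. Tumour CD8 cells followed at 5.10, 6.09 and 5.52, then spleen Tconv at 5.14, 4.65 and 4.80 and tumour Tconv at 4.95, 4.38 and 5.14, and spleen CD8 cells were lowest at 4.15, 4.29 and 4.50. All Treg arrays exceeded all others, the 2 Treg groups did not overlap each other, and each group from tumour CD8 downward overlapped the next one in the order of means. The probe was detected on 16 arrays, all but 2 of spleen CD8.

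Ikzf2 was 3.39 ± 0.23 higher in Treg than in Tconv of tumour (adjusted p = 1.62e-06, limma) and 2.83 ± 0.23 higher in spleen (adjusted p = 7.73e-06, limma), or 10.5-fold and 7.09-fold. Within BeadChips the tumour difference ran from 3.02 to 3.95 and the spleen difference from 2.55 to 3.02. Both calls held without any 1 array and without any replicate number, and without background correction the differences were 1.93 and 1.51. Tumour against spleen Treg differed by 0.52 ± 0.23 (95% interval 0.03 to 1.02), which did not pass (adjusted p = 0.415, limma) but did in the authors' value table (0.43, adjusted p = 0.031) and without background correction (adjusted p = 0.034). With median scaling the difference was 1.04 (adjusted p = 0.0558).

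In CD8 cells Ikzf2 was higher in tumour than in spleen by 1.26 ± 0.23 (adjusted p = 0.0168, limma), a 2.39-fold difference against a group in which the probe was detected on 1 of 3 arrays. It was the 1 call among the 13 probes in this comparison, where 0.863% of all probes passed, and the difference was 0.96, 1.80 and 1.03 within the BeadChips. The call was lost without spleen CD8 replicate 1 or tumour CD8 replicate 2 (adjusted p up to 0.0685), with each replicate number left out (0.0785 to 0.197), with median scaling (0.0657), in the authors' value table (0.42, adjusted p = 0.0786) and without background correction (0.43, adjusted p = 0.0559). The gain of CD8 cells over that of Tconv, 1.30 ± 0.33, did not pass (adjusted p = 0.437, limma). Of 4 Treg markers, Foxp3 on ILMN_1225330 was at 4.07, 4.17 and 4.24 on the tumour CD8 arrays and detected on none of them, and Il2ra was likewise not detected there. Il2ra did not pass between Treg and Tconv of either tissue by limma, so that its lack of detection here cannot speak to Treg. The third marker, Ctla4, was higher in tumour CD8 (5.79) than in spleen CD8 (4.24, detected on none of its arrays; adjusted p = 3.85e-04, limma), and so was Tnfrsf18, at 7.41 against 6.44 (adjusted p = 0.0452). The 4 markers summed to a normalized intensity of 313 to 359 in tumour CD8 and 199 to 302 in spleen CD8 cells, with Foxp3 read by ILMN_1251126, its brightest probe. That probe did not separate Treg from the other cells and averaged 6.44 in tumour CD8 and 7.05 in spleen CD8. Its part of the sum therefore does not follow Treg. The summed normalized intensity of 11 macrophage and monocyte genes was 1028 to 1504 in tumour CD8 cells and 239 to 538 in spleen CD8 cells, and that of 5 erythroid genes was 118 to 1430 against 2991 to 8315. The part of these markers in the Ikzf2 difference was not tested.

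Ikzf1, which encodes Ikaros, ran the other way, with lower levels in Treg than in Tconv on 4 of its 5 probes in at least 1 tissue. On ILMN_3051466 the tumour Treg arrays stood at 7.04, 6.90 and 6.67 and the spleen Treg arrays at 7.68, 7.67 and 7.66. Tumour Tconv read 8.05, 8.10 and 8.37, spleen Tconv 8.46, 8.43 and 8.39, tumour CD8 8.24, 7.49 and 8.25, and spleen CD8 7.82, 7.77 and 7.64. Tumour Treg lay below every other array and spleen Tconv above every other array, and spleen Treg overlapped both CD8 groups. ILMN_3127790 also had its lowest arrays in tumour Treg, at 6.91, 7.20 and 7.03, with spleen Treg at 7.56, 7.70 and 7.84. Its Tconv arrays read 8.09, 8.39 and 8.09 in tumour and 8.29, 8.45 and 8.53 in spleen, which overlap. On ILMN_1256645 tumour Treg read 7.57, 7.72 and 7.61 and spleen Treg 8.19, 8.05 and 8.35, below tumour Tconv at 8.59, 8.80 and 8.64 and spleen Tconv at 8.85, 8.90 and 9.24. ILMN_1255419 read 7.86 to 8.24 in tumour Treg and 8.06 to 8.22 in spleen Treg, below Tconv at 8.71 to 8.89 and 9.06 to 9.38, with its 3 tumour CD8 arrays spread from 8.12 to 9.18. ILMN_2569464 stayed near the floor, 4.20 to 5.31, and was detected on 14 arrays.

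In tumour, Ikzf1 was lower in Treg than in Tconv by -1.30 ± 0.18 on ILMN_3051466 (adjusted p = 5.92e-04, limma), by -1.14 ± 0.15 on ILMN_3127790 (5.22e-04) and by -1.04 ± 0.14 on ILMN_1256645 (6.45e-04), that is 2.46-fold, 2.20-fold and 2.06-fold. ILMN_1255419 differed by -0.77 ± 0.23 (adjusted p = 0.117) and ILMN_2569464 by -0.33 ± 0.22 (0.68), which did not pass. Of the 13 probes 5 passed here, 2 higher (Foxp3, which was part of the gate, and Ikzf2) and these 3 lower. Of all probes 2.25% passed and 0.735% passed as lower. The direction was the same within each BeadChip on these 3 probes, from -1.01 to -1.70 on ILMN_3051466, -1.06 to -1.19 on ILMN_3127790 and -1.02 to -1.08 on ILMN_1256645. With median scaling the 3 differences kept their direction at -0.77, -0.60 and -0.50 but did not pass (adjusted p = 0.116, 0.187 and 0.375), and that scaling moved the median difference of all probes by 0.12, from -0.01 to 0.11. The 3 Ikzf1 differences moved by more than that median, which does not give the move of a single probe. All 3 calls held without any 1 array, whereas with a whole replicate number left out ILMN_1256645 missed the threshold without number 1 or 2 (adjusted p up to 0.0544), ILMN_3051466 without 3 (0.0978) and ILMN_3127790 without 2 (0.0631).

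In spleen, 4 Ikzf1 probes were lower in Treg: ILMN_1255419 by -1.07 ± 0.23 (adjusted p = 0.0304, limma), ILMN_1256645 by -0.80 ± 0.14 (0.00778), ILMN_3051466 by -0.76 ± 0.18 (0.0479) and ILMN_3127790 by -0.72 ± 0.15 (0.0251). Of the 13 probes 6 passed, with Foxp3 of the gate among them, against 1.29% of all probes, and 0.386% passed as lower. Each call was lost without some single arrays. ILMN_1255419 lost it without any 1 of the 6 arrays compared (adjusted p up to 0.127), ILMN_1256645 without spleen Treg replicate 2 (0.0524), and ILMN_3127790 without spleen Treg replicate 1 or 2 or spleen Tconv replicate 2 or 3 (up to 0.131). ILMN_3051466 lost it without any 1 array except those of tumour CD8 (up to 0.153) and with the BeadChip as a block (0.0624). With median scaling none of the 4 passed (adjusted p 0.393 to 0.526), at differences of -0.62 to -1.01. With a whole replicate number left out, ILMN_1256645, ILMN_3051466 and ILMN_3127790 lost the call in all 3 fits and ILMN_1255419 in 2 (adjusted p up to 0.387).

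Within Treg, Ikzf1 was lower in tumour than in spleen on 2 probes, by -0.79 ± 0.18 on ILMN_3051466 (adjusted p = 0.0267, limma) and -0.66 ± 0.15 on ILMN_3127790 (0.0352). Of all probes 0.702% passed as lower in this comparison. ILMN_1256645 differed by -0.56 ± 0.14 (adjusted p = 0.0573) and ILMN_1255419 by -0.13 ± 0.23 (95% interval -0.62 to 0.36), neither of which passed, so that the probes of the gene did not give 1 size. Before normalization the arrays overlapped on both called probes. ILMN_3051466 read 205 to 247 in tumour Treg against 230 to 300 in spleen Treg, and ILMN_3127790 read 230 to 265 against 227 to 335. The mean of ILMN_1256645 was then 335 against 347, and that of ILMN_1255419 was higher in tumour, 425 against 333. Each of the 2 calls was lost without spleen Treg replicate 1, 2 or 3 or tumour Treg replicate 3, and also without tumour Treg replicate 2 for ILMN_3051466 and replicate 1 for ILMN_3127790 (adjusted p up to 0.107 and 0.153), and both were lost with any of the 3 replicate numbers left out (up to 0.362 and 0.326). With median scaling the differences fell to -0.29 and -0.15 (adjusted p = 0.664 and 0.831). Markers of several other cell types differed between the 2 Treg groups without overlap. The 6 melanoma genes summed to a normalized intensity of 321 to 473 in tumour and 121 to 163 in spleen. The 4 neutrophil genes summed to 230 to 564 and 76.5 to 189, and 5 erythroid genes to 88.5 to 1139 and 3474 to 11324. The 5 B cell genes summed to 112 to 136 in tumour and 147 to 295 in spleen. Other lists overlapped. The 11 macrophage and monocyte genes summed to 549 to 1233 in tumour and 221 to 743 in spleen, and 6 dendritic cell genes to 131 to 164 and 126 to 153. The part of these markers in the Foxp3 and Ikzf1 differences between these groups was not tested. The tumour minus spleen difference of Treg against that of Tconv was tested directly, and no Ikzf1 probe passed (ILMN_3051466 -0.54 ± 0.25, adjusted p = 0.806, limma).

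Across the 18 arrays the 4 brighter Ikzf1 probes correlated with each other at r = 0.63 to 0.97, and with Foxp3 ILMN_1225330 at -0.79 to -0.87, while Ikzf2 correlated with that Foxp3 probe at 0.951. The 18 points are 6 groups of 3, so that these values largely restate the group means. The summed normalized intensity of 5 B cell genes was 112 to 136 in tumour Treg against 90.1 to 95.5 in tumour Tconv, and 147 to 295 against 93.2 to 172 in spleen, with Ms4a1 and Pax5 detected in no group. Macrophage and monocyte genes summed to 549 to 1233 in tumour Treg and 538 to 1395 in tumour Tconv, and 4 neutrophil genes to 230 to 564 and 80.8 to 303. The part of these genes in the Ikzf1 differences was not tested.

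**Figure D2:**
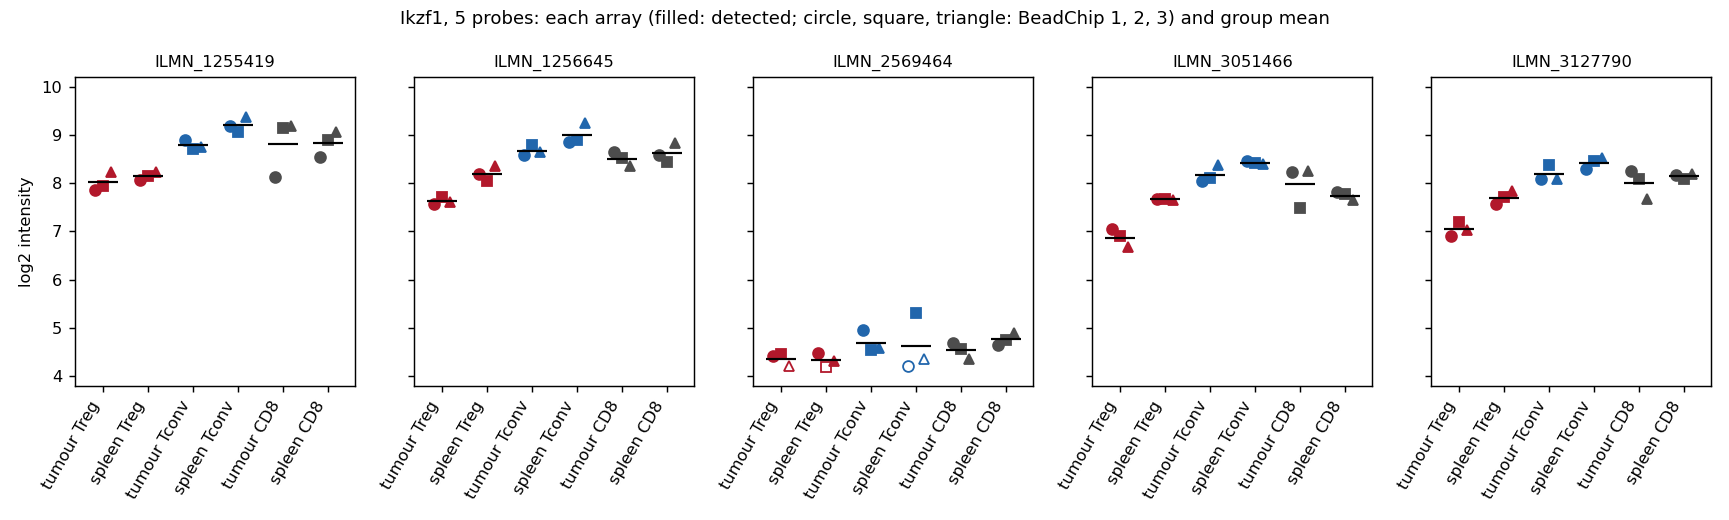
Log2 intensity (vertical axis, floor near 4) of the 5 Ikzf1 probes in 6 groups. Points are single arrays, filled where detected, with shapes for the BeadChips, and black lines are group means of 3 arrays. On ILMN_3051466 and ILMN_3127790 the tumour Treg arrays, at 6.67 to 7.20, lie below all others, and ILMN_2569464 stays near the floor.

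Ikzf3, which encodes Aiolos, gave no call in any of the 9 comparisons by limma. Its brightest probe, ILMN_1216717, read 8.73, 9.35 and 9.77 in tumour Treg, 9.13, 9.00 and 9.14 in spleen Treg and 9.15, 9.07 and 9.20 in tumour Tconv. Spleen Tconv read 9.04, 8.46 and 8.24, tumour CD8 9.27, 8.24 and 8.81, and spleen CD8 8.73, 8.46 and 8.74. Tumour Treg spanned the range of both neighbours. The Treg minus Tconv difference was 0.14 ± 0.27 in tumour (95% interval -0.44 to 0.72) and 0.51 ± 0.27 in spleen (-0.08 to 1.09), and tumour minus spleen in Tconv was 0.56 ± 0.27 (-0.02 to 1.14). ILMN_1225747 ran from 4.58 to 6.60 on 18 arrays with detection, and ILMN_1249254 from 4.06 to 4.79 with detection on 5 arrays. That probe had the one unadjusted p under 0.05 of Ikzf3, for tumour against spleen CD8 (0.46 ± 0.14, adjusted p = 0.212, limma).

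**Figure D3:**
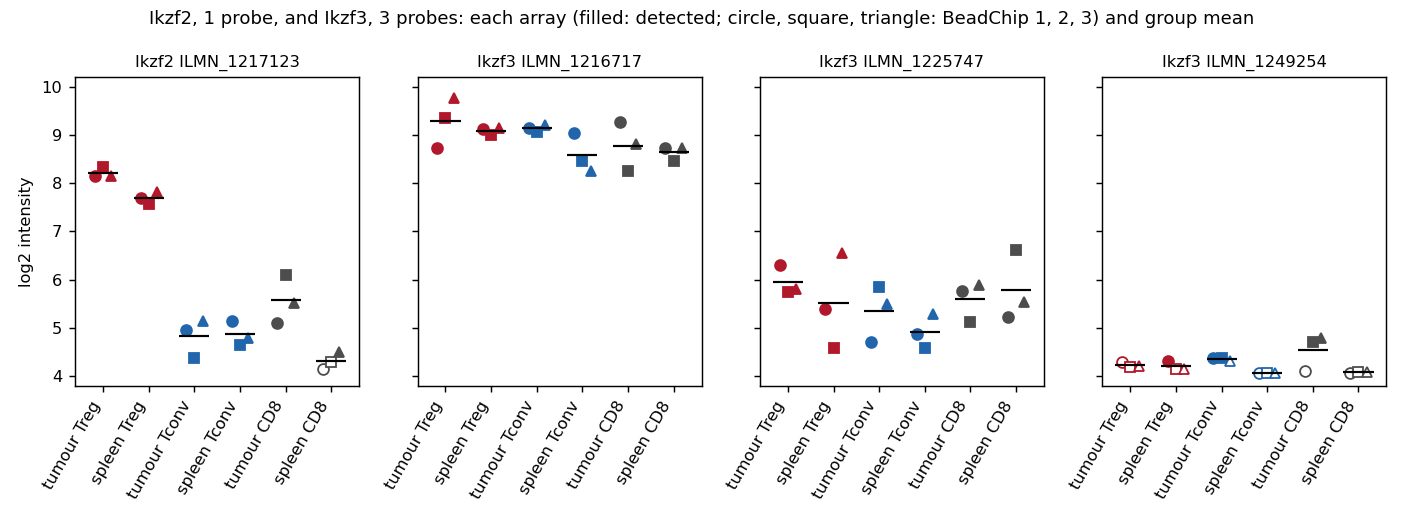
Log2 intensity (vertical axis, floor near 4) of the Ikzf2 probe and the 3 Ikzf3 probes in 6 groups. Points are single arrays, filled where detected, with shapes for the BeadChips, and black lines are group means of 3 arrays. Ikzf2 stands at 7.56 to 8.34 on the Treg arrays and at 6.09 or below elsewhere, whereas on Ikzf3 ILMN_1216717 the tumour Treg arrays span those of spleen Treg and tumour Tconv.

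Over all members, 15 of the 117 results (13 probes in 9 comparisons) passed the threshold, as did 0.954% of the 247266 results of all probes. These calls include Foxp3 between Treg and Tconv, which the gate fixed, and several probes of Ikzf1 that correlate with each other. The calls are therefore not independent results. No probe passed for tumour against spleen in Tconv (1 at an unadjusted p under 0.05), where 0.91% of all probes passed. None passed for CD8 against Tconv in tumour (1 unadjusted, background 0.379%) or in spleen (3 unadjusted, background 0.644%). None passed for the difference of differences of Treg (2 unadjusted, background 0.12%) or of CD8 cells (1 unadjusted, background 0.0182%). Each background is the share of all probes past the adjusted threshold. It is therefore no reference for the unadjusted counts, for which no share of all probes is given. The comparisons of Treg share arrays with one another, and their members' values are given side by side only.

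**Figure D4:**
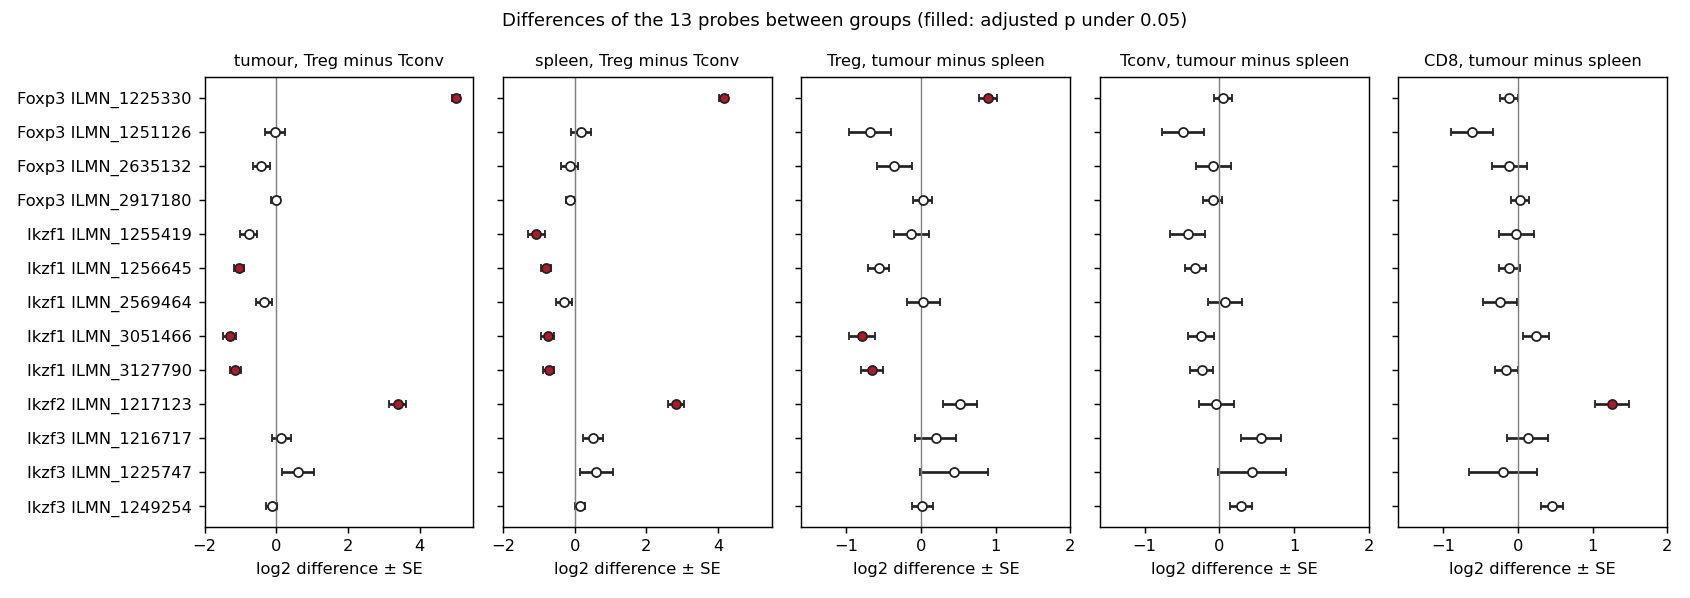
Differences in log2 intensity ± SE (horizontal axis, n = 3 arrays in each group) of the 13 probes in 5 comparisons. Filled points have an adjusted p under 0.05. Foxp3 ILMN_1225330 and Ikzf2 lie far to the right in Treg minus Tconv of both tissues, at 2.83 to 5.01, and the Ikzf1 probes to the left, and the axes of the last 3 panels are narrower.

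The corepressors that Ikaros factors and Foxp3 recruit, such as the NuRD helicase Chd4 and the deacetylases Hdac1 and Hdac2, showed no call. Of 14 listed genes 11 passed the filter, and none passed the test in any of the 9 comparisons by limma, each gene read by its brightest probe. Their median difference was -0.10 in Treg minus Tconv of tumour and 0.04 in spleen. Over all 13658 genes read in this way, 1.92% were higher and 0.813% lower in tumour Treg than in Tconv, 1.08% and 0.498% in spleen, 1.78% and 0.732% in tumour than in spleen Treg, and 0.842% and 0.256% in tumour than in spleen CD8. The median of all genes lay within 0.02 of 0 in each of these.

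Of the 27 transcription factor partners and regulators of Foxp3, 1 was higher and 1 lower in tumour Treg than in Tconv. Irf4, a factor of effector Treg, was higher by 1.15 ± 0.28 (adjusted p = 0.0463, limma), and Satb1, a chromatin organiser of T cells, was lower by -1.38 ± 0.19 (adjusted p = 8.34e-04). In spleen Satb1 was the 1 call, at 9.35 in Treg against 10.35 in Tconv (SE of the difference 0.19, adjusted p = 0.0152), with 1 of its other 2 probes called the same way. Like Ikzf1, Satb1 did not pass with median scaling (adjusted p = 0.151 and 0.251), whereas Irf4 did (0.00474). None of the 27 passed between tumour and spleen in Treg, Tconv or CD8 cells by limma.

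Genes known to be raised in Treg with Foxp3 were mostly higher in Treg than in Tconv. The list was drawn from known Treg genes and the cells were sorted on Foxp3 and CD25, so that this direction was largely set beforehand. The list holds Ikzf2 itself and the sort marker Il2ra, which was not called between Treg and Tconv in either tissue. Of 15 genes that passed the filter, 10 were higher and 0 lower in tumour Treg than in Tconv (median 1.08), and 11 and 0 in spleen (median 2.36), with 2 and 1 of the called genes having another probe that was not called the same way. Examples are Ctla4, an inhibitory receptor, at 2.10 ± 0.18 in tumour and 2.98 ± 0.18 in spleen, and Tnfrsf4 (OX40), a costimulatory receptor, at 2.82 ± 0.27 and 3.34 ± 0.27. Between tumour and spleen Treg 4 were higher and 2 lower. Icos, a costimulatory receptor, was higher by 1.15 ± 0.18 (adjusted p = 0.00178, limma), and Izumo1r (folate receptor 4) and Gpr83, both surface proteins of Treg, were lower by -1.72 ± 0.17 and -2.73 ± 0.50. In CD8 cells 5 of the 15, Ikzf2 among them, were higher in tumour and none lower, including Nrp1 at 2.20 ± 0.18, Ctla4 at 1.55 ± 0.18 and Icos at 1.32 ± 0.18. With median scaling Ikzf2 (adjusted p = 0.0657, limma) and Tnfrsf18 (0.216) did not pass there. In Tconv 6 of the 15 were higher in tumour and 0 lower, where 0.91% of all probes passed. Ctla4 differed by 1.77 ± 0.18, Tnfrsf18 by 1.95 ± 0.21 and Nrp1 by 1.52 ± 0.18. Of the Tconv calls, Il2rb did not pass with median scaling (adjusted p = 0.101, limma).

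Of 7 genes known to be repressed by Foxp3, 3 were lower and 0 higher in Treg than in Tconv of each tissue. The median difference of the 7 was -1.23 in tumour and -0.04 in spleen, where that of all genes was -0.01. The phosphodiesterase Pde3b differed by -2.74 ± 0.32 in tumour and -3.06 ± 0.32 in spleen (adjusted p = 1.59e-04 and 6.91e-05, limma), and Dapl1 by -1.72 ± 0.32 and -2.87 ± 0.32. The phosphatase Ptpn22 was lower in tumour (-0.66 ± 0.15) and the interleukin 7 receptor Il7r in spleen (-0.79 ± 0.12, with 2 of its 4 other probes called the same way). Neither passed with median scaling (adjusted p = 0.877 and 0.235, limma). Il7r was the 1 call of the list between tumour and spleen Treg, higher by 0.70 ± 0.12 (adjusted p = 0.00556), with 2 of its 4 other probes called the same way. In CD8 cells 2 were higher in tumour and 1 lower, and the counts were the same in Tconv. With median scaling Ptpn22 (1.02 ± 0.15, adjusted p = 0.107, limma) and Dapl1 (-1.49 ± 0.32, 0.137) of CD8 cells did not pass, while Ifng (2.26 ± 0.34, 0.00355) did. In Tconv, Ptpn22 (adjusted p = 0.0791, limma) and Dapl1 (0.206) likewise did not pass with median scaling, while Ifng did (0.0144). The other Ifng probe was not called in Tconv.

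Ikzf5 (Pegasus), the remaining family member, had 2 probes, at 4.19 to 5.11 and 4.76 to 5.86, and no call by limma. The largest deviation at an unadjusted p under 0.05 was a spleen CD8 minus Tconv difference of 0.53 ± 0.20 on ILMN_2963412 (adjusted p = 0.385).

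The probes most like each member over the 18 arrays, by Pearson's r, are given as a description. For Foxp3 ILMN_1225330 they were Myo1e (0.970), Actg2 (0.967), Zfp862-ps (0.963), Ncmap (0.961) and Dusp4 (0.956), and for Ikzf2 they were Actg2 (0.952), Foxp3 (0.951), Nrn1 (0.949), Myo1e (0.944) and Dusp4 (0.943). Thus 3 of the 5 genes were shared by both. For Ikzf1, Lef1 led on ILMN_1256645 (0.927) and stood second on ILMN_3127790 (0.907, after Rpl9 at 0.915), and it was among the 5 likest on ILMN_3051466 (0.844), where Satb1 led (0.889), and Siah1a led on ILMN_1255419 (0.889). Lef1 and Satb1 are transcription factors of naive T cells. For Ikzf3 ILMN_1216717 the likest was Mki67, a gene of dividing cells, at 0.786. The Foxp3 probes that did not follow Treg had other neighbours, led for ILMN_2917180 by Washc3 (0.838).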

How the data were processed

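Per the labels, 18 RNA samples of sorted T cells (2.5 ng RNA each, amplified and labelled with biotin) were hybridised to Illumina mouse BeadChips. The deposited table, not normalized by its name, holds per probe and array the mean bead intensity, the number of beads (25 to 69 for the probes described) and their standard deviation, and the authors deposited a detection p-value beside each, per the file headers; the software behind them is not named in the sources. A second table deposited by the authors gives linear intensity values, with normalization and centring not stated; its ranks follow the signals (rho at least 0.999).

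Signals were processed by neqc (limma 3.58.1, R 4.3.3; background from detection p-values, offset 16, quantile normalization, log2). The offset compresses differences of dim probes. Of the probes, 28620 took their name by Entrez number, 2637 by accession and 2343 by an older symbol, 2184 kept the platform symbol and 10453 had none; Ikzf1 ILMN_1255419 and ILMN_1256645 were named by accession, and Ikzf1 ILMN_2569464 and Ikzf3 ILMN_1225747 and ILMN_1249254 by older symbols. Probes detected at p under 0.05 on at least 3 arrays entered lmFit and eBayes with 1 mean per group (12 residual degrees of freedom), and 9 comparisons were adjusted over 27474 probes by Benjamini-Hochberg. The fit was run on simulated data with independent noise, without a BeadChip effect or a normalization step. That run cannot speak to the choice of normalization. Genes of lists were read by their brightest probe, naming per comparison at most the 3 with the smallest p, and the 5 likest probes of other genes were given for each member probe. The members and lists were chosen with earlier results of these data known. Alternatives were no background correction, median scaling, the authors' value table, no detection filter, the replicate block and leaving out arrays. The replicate number marks the BeadChip, per the labels. The mean correlation of residuals was 0.0423 over the 45 pairs of arrays that share a number, 5 of them above 0.1. Over the 90 pairs with different numbers it was -0.0209, with 1 above 0.1. The number of arrays limits the precision.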

Additional observations from a re-analysis of the deposited data

How the results depend on the processing

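No result of a member probe changed direction while called under any of the alternatives run. Of the 15 calls among the members, 5 (Foxp3 ILMN_1225330 in 3 comparisons and Ikzf2 between Treg and Tconv in both tissues) held with median scaling and 10 did not, namely the 9 of Ikzf1 and that of Ikzf2 in CD8 cells; the cause was not tested. Without the detection filter Ikzf1 ILMN_1255419 and ILMN_3051466 in spleen missed the threshold (adjusted p = 0.0529 and 0.0615), whereas ILMN_1256645 passed between tumour and spleen Treg (0.0498; 0.0421 without background correction) and the Foxp3 difference of differences passed (0.0428). The fit with the replicate block ended 1 call, Ikzf1 ILMN_3051466 in spleen (-0.76, adjusted p = 0.0624), and gave 601 probes for Treg of tumour against spleen where the fit without it gave 581, and it changed no other member call.

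With median scaling the probes called moved from 581 to 939 (Treg, tumour against spleen), 250 to 156 (Tconv), 237 to 154 (CD8), 618 to 1091 (tumour, Treg against Tconv), 354 to 230 (spleen), 104 to 58 (tumour, CD8 against Tconv), 177 to 74 (spleen), 33 to 56 (difference of differences, Treg) and 5 to 2 (CD8). The difference of differences of Treg also moved to 50 probes both without background correction and in the authors' value table. Leaving out single arrays or replicate numbers gave, in the same order, 122 to 626, 60 to 282, 70 to 275, 181 to 663, 79 to 373, 25 to 120, 42 to 207, 0 to 51 and 0 to 10 probes. Signals near background limit Foxp3 ILMN_2917180, Ikzf1 ILMN_2569464 and Ikzf3 ILMN_1249254, and Ikzf2 in spleen CD8 cells.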
